A study of Homo sapiens with 6 samples.

Results

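HOX cluster genes were followed in MDA-MB-453, an established cell line from a HER2+ breast cancer, after siRNA knockdown of the dual specificity phosphatase gene *DUSP6*. All rows of the expression table whose symbol is HOX, a cluster letter from A to D and a number were taken, which gave 27 of 22807 genes. RefSeq lists 39 such genes, and the other 12 were not analysed here. Cluster A contributed 7 genes, cluster B 5, cluster C 9 and cluster D 6. RNA was sequenced from 3 libraries labelled scrambled (genotype WT) and from 3 labelled *DUSP6* knockdown (genotype DUSP6 KD), all grown in RPMI with serum. Each library was transfected with siRNA, and the study used 3 different siRNAs against *DUSP6* and 3 different scrambled controls. The siRNA used for each library is not known here, and differences between siRNAs form part of the spread between libraries.

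HOX genes encode homeodomain transcription factors and lie in 4 chromosomal clusters that arose by duplication. Within a cluster the genes are numbered by paralogue group, and low numbers act towards the head and high numbers towards the tail of the embryo. Polycomb proteins keep the clusters silent, Trithorax proteins keep them active, and retinoic acid is a known inducer of the low-numbered genes. HOX proteins bind DNA together with factors of the TALE homeodomain class, and adult tissues and tumors retain a pattern of active HOX genes that reflects their origin.

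The homeodomain contacts DNA mainly through 1 of its helices, the recognition helix, and the coding stretch around that helix is shown for 3 of the 4 genes whose levels changed and for *HOXC9*, the neighbor of *HOXC8* and *HOXC10*. The 15 codons are written 5′ to 3′ from the coding strand of GENCODE transcripts on GRCh38, and capitals mark bases that differ from *HOXC10*.
HOXC10: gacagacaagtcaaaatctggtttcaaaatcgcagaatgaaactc
HOXC9: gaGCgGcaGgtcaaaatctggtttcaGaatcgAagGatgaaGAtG
HOXB2: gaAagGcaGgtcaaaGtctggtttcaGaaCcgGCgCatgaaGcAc
HOXD8: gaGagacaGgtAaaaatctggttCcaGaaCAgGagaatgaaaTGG
Between 10 and 11 of the 45 bases differ from *HOXC10* in these genes. Over the whole homeobox of 180 bases, identity to *HOXC10* was 72.2% for *HOXC9*, 60.0% for *HOXD8* and 59.4% for *HOXB2*. Among all 55 pairs of the 11 tested HOX genes, homeobox identity ranged from 50.6% to 77.8%. The longest stretch that one of these transcripts shared exactly with any other HOX transcript was 62 bases, between *HOXB3* and *HOXD3*, and it was at most 31 bases for the other 10.

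Values are normalized signals, the reads of a gene per 1e6 reads of a scaled library size, and 1 read was worth between 0.0121 and 0.0202. The recovered depth ranged from 45546981 to 85729785 reads per library. *DUSP6* itself had values of 209, 110 and 114 in the scrambled libraries and 39.4, 24.5 and 35.2 in the knockdown libraries, so the labels and the targeted gene were in accord. The luminal epithelial markers *EPCAM*, *KRT8*, *KRT18*, *KRT19*, *GATA3* and *ERBB2* were all tested. Of these 6, 5 were called lower (4 with edgeR, which did not call *KRT8*), where 24.7% of all genes tested were. The call of *KRT8* held in only 6 of 16 alternative settings. Without a scaling factor 4 markers were lower and 1, *EPCAM*, was higher. The summed value of the 6 markers was 3242 to 4367 in scrambled and 2192 to 2385 in knockdown libraries. The sum thus fell, as did 3 of the 11 tested HOX genes described below. The part of these markers in the HOX results was not tested. Both endothelial markers together stayed under a value of 0.253 in every library. The fibroblast markers summed to 80.8 to 105 in scrambled and 162 to 192 in knockdown libraries. Nearly all of this was *COL1A1*, which rose from a mean of 92.2 to 173 (limma adjusted p = 4.21e-04), while *COL1A2* and *PDGFRB* had means of at most 0.170. The part of *COL1A1* in the HOX results was not tested. The basal markers *TP63*, *KRT5* and *KRT14* summed to 7.71 to 15.8 in scrambled and 2.05 to 2.93 in knockdown libraries, most of it *TP63*, while the low *KRT14* was higher in every knockdown library (8 reads over the scrambled and 68 over the knockdown libraries). The leukocyte markers *CD68* and *PTPRC* summed to 4.47 to 5.49 and 3.45 to 5.48, nearly all of it *CD68*, while *CD3E* was not analysed here. In bulk RNA, fewer cells of a type and less RNA per cell cannot be told apart.

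With scrambled siRNA, 10 of the 27 HOX genes were expressed, taken as a value of at least 1 in each of the 3 libraries. These were *HOXB2*, *HOXB3* and 8 of the 9 HOXC genes. Not one of the 7 HOXA genes or the 6 HOXD genes reached this limit. Of the remaining 17 genes, *HOXA10*, *HOXA13* and *HOXD8* had reads in every scrambled library at values under 1, 10 had reads in some of the scrambled libraries, and *HOXB4*, *HOXB8*, *HOXD10* and *HOXD12* had none. A count of 0 over the 218577369 reads of the scrambled group allows up to 3 reads, or 0.0137 counts per 1e6 reads (CPM, before scaling), a limit that covers counting error only. The number of expressed genes was also 10 with a limit of 0.5 or 2, and with a limit of 1 per kb of exon.

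**Figure D1:**
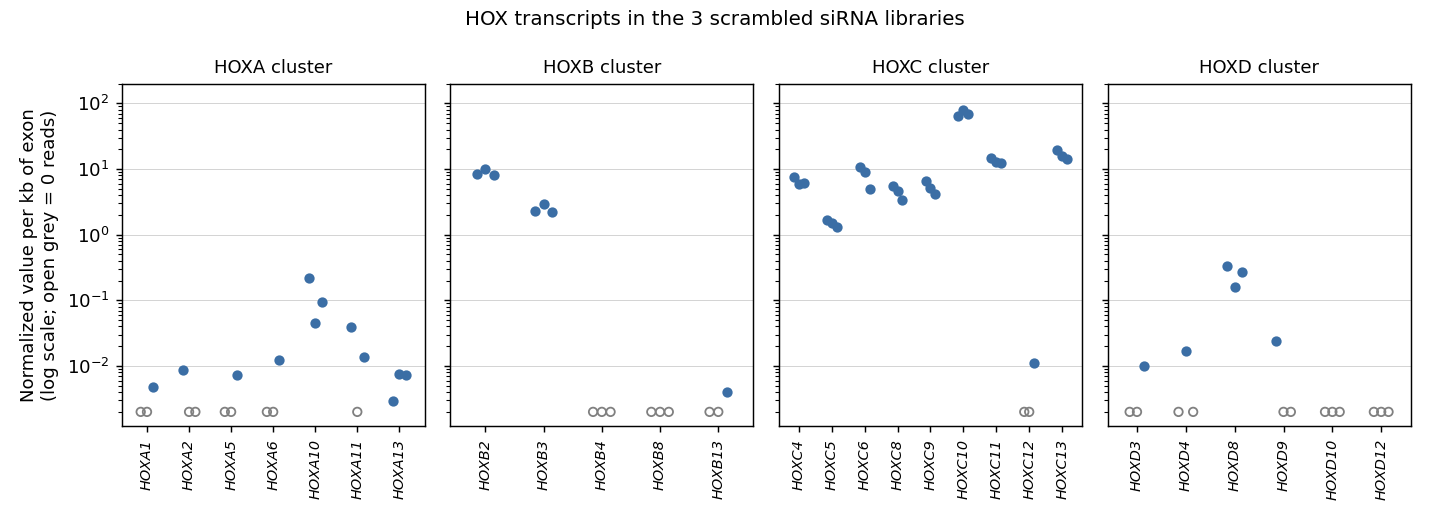
Normalized value per kb of exon (log scale) of the 27 HOX genes in the 3 scrambled siRNA libraries, by cluster and paralogue number, with 1 point per library and open grey circles for 0 reads. The 8 expressed HOXC genes and *HOXB2* and *HOXB3* lie above 1, and the other genes lie at or under 0.335.

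Levels of different genes were compared per kb of exon of the GENCODE canonical transcript. *HOXC10* (Entrez gene 3226, chromosome 12 of GRCh38, 53985146 to 53990279) stood highest, at 71.0 ± 8.39 per kb (SD, n = 3), and made up 51.2% of the summed HOX level per kb in scrambled libraries. It is one of the posterior genes and takes part in hindlimb patterning. *HOXC13*, a regulator of hair and nail formation, followed at 16.6 ± 2.54 per kb (SD, n = 3), and *HOXC11* at 13.4 ± 1.21 per kb (SD, n = 3), with overlapping libraries. *HOXB2*, which patterns the hindbrain, had 8.87 ± 1.03 per kb (SD, n = 3). From *HOXB2* through *HOXC6* (8.23), *HOXC4* (6.55), *HOXC9* (5.26) and *HOXC8* (4.50 per kb), each gene overlapped the next across libraries. *HOXB3* (2.47), *HOXC5* (1.51) and *HOXD8* (0.256 per kb) then each lay apart from their neighbors in the order of the 11 tested genes. *HOXA10*, which was not tested, had 0.222, 0.0452 and 0.0949 per kb, overlapping *HOXD8* (0.161 to 0.335 per kb). Cluster C held 91.2% to 91.9% of the summed HOX level per kb in scrambled libraries and 90.1% to 90.6% in knockdown libraries, and cluster B held 7.61% to 8.69% and 8.62% to 9.01%.

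By paralogue number, 2 of the 5 anterior genes in the table (groups 1 to 3), 4 of the 10 central genes (groups 4 to 8) and 4 of the 12 posterior genes (groups 9 to 13) were expressed with scrambled siRNA. The gap inside cluster C was *HOXC12*, with 3 reads over the scrambled and 2 over the knockdown libraries, although its neighbors *HOXC11* and *HOXC13* were the next most abundant HOX transcripts after *HOXC10*. In cluster B, expression was found in the low-numbered *HOXB2* and *HOXB3*, while *HOXB4* and *HOXB8* had 0 and *HOXB13*, known from the prostate, had 1 read over the 3 scrambled libraries.

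Knockdown was compared with scrambled siRNA by limma on log2(value + 1), fitted to the 12862 genes whose value averaged at least 1 across all libraries, with Benjamini-Hochberg adjustment over all of them. Of the 27 HOX genes, 11 passed this filter, namely the 10 expressed genes and *HOXD8*. *HOXC8*, *HOXC10* and *HOXB2* were lower and *HOXD8* was higher at an adjusted p under 0.05, and 7 genes were not called. Lower calls thus made up 3 of 11, against 24.7% of all genes tested, and the 1 higher call of 11 compares with 19.7%, so neither count stands apart from the table as a whole. The median log2 fold change of the 11 genes was -0.19, beside -0.01 over all genes tested. Of all calls 44.4% were higher. Without a scaling factor this share was 72.6%, and the median of all genes moved up by 0.21 on the log2 scale. With the quasi-likelihood test of edgeR, run on the reads recovered from the values, the same 4 genes were called in the same directions.

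**Figure D2:**
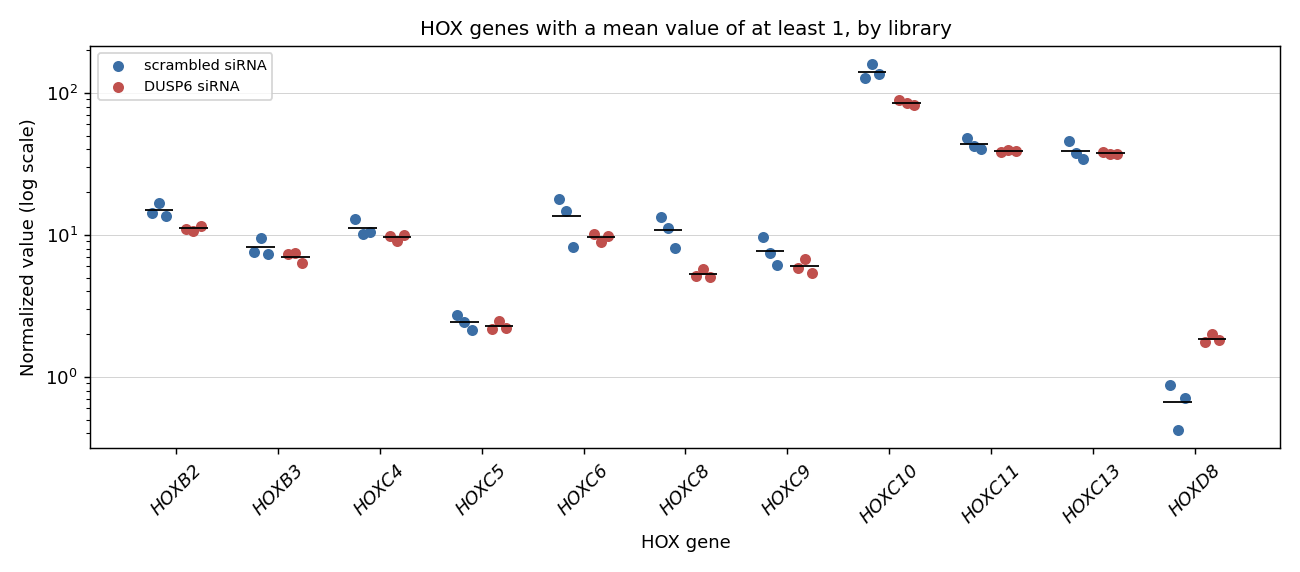
Normalized value (log scale) of the 11 tested HOX genes in each library, blue for scrambled and red for *DUSP6* siRNA, with black bars at the group means. The groups lie apart for *HOXB2*, *HOXC4*, *HOXC8*, *HOXC10*, *HOXC11* and *HOXD8*, and overlap for the others. Of all genes tested, 31.1% lay apart with knockdown lower and 26.7% with knockdown higher.

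*HOXC8*, a central gene that patterns the thoracic region, had values of 13.3, 11.2 and 8.09 in scrambled replicates 1 to 3 and 5.12, 5.78 and 5.07 in knockdown replicates 1 to 3. Every knockdown library lay under the lowest scrambled library. The scrambled mean was 10.9 ± 2.62 (SD, n = 3) and the knockdown mean 5.32 ± 0.401 (SD, n = 3), or -0.89 on the log2 scale (SE 0.16, limma adjusted p = 0.00264). On the recovered reads edgeR gave -0.99 (adjusted p = 0.00307).

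*HOXC10* had values of 127, 159 and 135 with scrambled siRNA and 89.0, 84.6 and 82.6 after knockdown. The knockdown libraries lay close together and under all 3 controls. The mean went from 140 ± 16.6 (SD, n = 3) to 85.4 ± 3.28 (SD, n = 3), or -0.70 on the log2 scale (SE 0.10, limma adjusted p = 7.44e-04). Its share of the summed HOX level per kb was 43.3% after knockdown. Exons of other GENCODE genes, among them the antisense *HOXC-AS3*, overlap 10.6% of its exon bases, where reads cannot be assigned with certainty.

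*HOXB2* (chromosome 17, 48542655 to 48545109) had 14.3, 16.9 and 13.6 with scrambled siRNA and 10.999, 10.7 and 11.6 after knockdown, again with no overlap. The mean changed from 14.9 ± 1.73 (SD, n = 3) to 11.1 ± 0.471 (SD, n = 3), or -0.39 on the log2 scale (SE 0.11, limma adjusted p = 0.0212). This call was the least firm of the 4. It was lost when any 1 of the 3 knockdown libraries was left out (adjusted p from 0.0595 to 0.0783), and when CPM without a scaling factor was used (log2 fold change -0.18, adjusted p = 0.225).

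*HOXD8* (chromosome 2, 176129705 to 176132695), a central gene of cluster D, had 0.878, 0.422 and 0.711 with scrambled siRNA and 1.76, 1.99 and 1.82 after knockdown. These rest on 140 reads over the scrambled and 368 over the knockdown libraries. The means were 0.670 ± 0.231 and 1.86 ± 0.121 (SD, n = 3 each), or 0.78 on the log2 scale (SE 0.13, limma adjusted p = 0.00141). Since *HOXD8* passed the filter only through its knockdown libraries, it was also read from the fit without a filter, where the limma adjusted p was 0.00326. Adding 1 to so low a value makes the change smaller, and edgeR, on the same filtered genes, gave 1.49 on the log2 scale (adjusted p = 0.00185).

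The 2 calls in cluster C, *HOXC8* and *HOXC10*, flank *HOXC9*, which was not called. *HOXC9* had 9.64, 7.49 and 6.11 with scrambled siRNA and 5.88, 6.77 and 5.36 after knockdown, or -0.31 on the log2 scale (limma adjusted p = 0.148). *HOXC6* ranged more widely, at 17.8, 14.8 and 8.15 in the controls and 10.1, 8.84 and 9.89 after knockdown, or -0.40 on the log2 scale (limma adjusted p = 0.194). In *HOXC6*, *HOXC8* and *HOXC9* scrambled replicate 3 was the lowest control, and without it *HOXC6* (adjusted p = 0.00205) and *HOXC9* (adjusted p = 0.0296) were called lower as well.

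Of the genes beyond *HOXC10*, *HOXC11* and *HOXC13* were tested and neither was called. *HOXC11* had 48.0, 42.4 and 40.3 with scrambled siRNA and 38.6, 39.5 and 38.7 after knockdown. Its groups did not overlap, which held for 31.1% of all genes tested in this direction, but the log2 fold change of -0.15 was not called (95% interval -0.37 to 0.06, limma adjusted p = 0.219) and turned to 0.07 without a scaling factor. *HOXC13* had 45.7, 37.8 and 34.0 against 38.4, 37.3 and 37.4, a log2 fold change of -0.04 with a 95% interval from -0.31 to 0.22. Exons of *HOXC13-AS* cover 7.30% of those of *HOXC13*, and the sign of its change turned under several settings, at 0.02 with quantile normalization and 0.18 without a scaling factor.

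Ratios between genes of 1 library do not depend on the scaling, and those of *HOXC8* and *HOXC10* to *HOXC11* and *HOXC13* were computed after the values had been seen. The ratio of *HOXC10* to *HOXC11* was 2.65, 3.75 and 3.35 in scrambled libraries and 2.31, 2.14 and 2.13 in knockdown libraries. The ratio of *HOXC8* to *HOXC11* was 0.277, 0.265 and 0.200 against 0.133, 0.146 and 0.131. Both ratios, and those to *HOXC13*, were lower in each knockdown library than in every scrambled library, with p = 0.1 in the two-sided exact permutation test for each, the smallest it can give. As the pairs were taken from genes already called and not called, these values only restate that difference on a scale free of the library scaling. Relative to *HOXC9*, the ratio of *HOXC8* was also lower without overlap (1.40 ± 0.0911 against 0.889 ± 0.0489, SD, n = 3 each), whereas that of *HOXC10* overlapped between the groups.

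**Figure D3:**
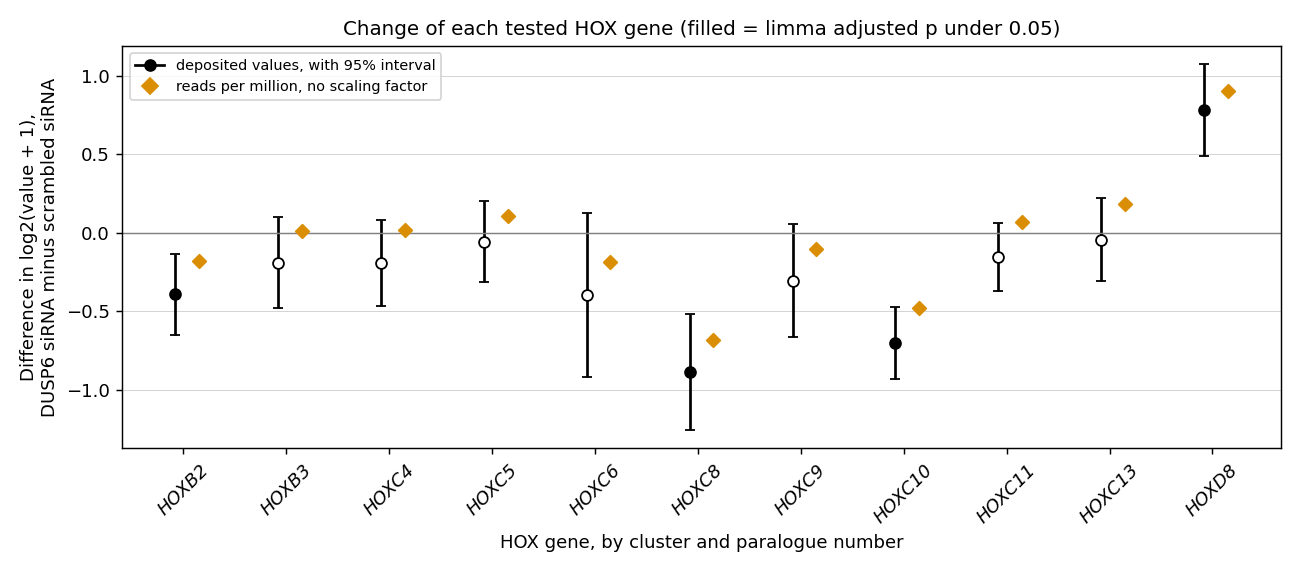
Difference in log2(value + 1) between *DUSP6* and scrambled siRNA for the 11 tested HOX genes, as circles with 95% intervals (filled where the limma adjusted p is under 0.05), and as diamonds for CPM without a scaling factor. *HOXC8* and *HOXC10* lie lowest and *HOXD8* highest on both scales, and the differences of *HOXB3*, *HOXC4*, *HOXC5*, *HOXC11* and *HOXC13* change sign between the scales.

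At the low-numbered end of cluster C, *HOXC4* had 12.99, 10.2 and 10.4 with scrambled siRNA and 9.77, 9.11 and 9.95 after knockdown, without overlap, and *HOXC5* had 2.72, 2.43 and 2.13 against 2.18, 2.48 and 2.21. Neither was called, with log2 fold changes of -0.19 (limma adjusted p = 0.223) and -0.06 (limma adjusted p = 0.708). RefSeq gives *HOXC4*, *HOXC5* and *HOXC6* the same start at base 54016888 of chromosome 12, so the split of reads among these 3 genes is uncertain. Separately, other GENCODE genes cover 67.3% of the exons of *HOXC5*, where reads cannot be assigned with certainty. *HOXB3*, a hindbrain gene, had 7.59, 9.56 and 7.35 against 7.32, 7.40 and 6.29, or -0.19 on the log2 scale (limma adjusted p = 0.254), and 9.03% of its exons are shared with the antisense genes *HOXB-AS1* and *HOXB-AS3*.

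Summed over its genes, cluster C had values of 277, 285 and 244 in the scrambled libraries and 199, 194 and 191 in the knockdown libraries. The mean went from 269 to 195, a change of -27.5%. *HOXC10* was the largest term and most of this fall, with a mean of 140 against 85.4, and 6 of the 8 tested HOXC genes were not called. Cluster B had 21.9, 26.4 and 20.9 against 18.4, 18.2 and 17.98, a change of -21.2%. Both sums were lower in every knockdown library than in any scrambled library. As CPM without a scaling factor the change in cluster C was -14.9%, still without overlap, and that in cluster B was -7.62%, with overlap (19.3 to 24.4 in scrambled and 19.5 to 20.001 in knockdown libraries). Cluster D had 0.922, 0.441 and 0.735 against 1.76, 2.13 and 1.85, almost all of it *HOXD8*. Cluster A had 0.699, 0.153 and 0.349 against 0.344, 0.245 and 0.324, with overlap. These sums are given without a test.

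Of the 16 HOX genes under the filter, 13 had at most 3 reads in all over the scrambled libraries, and *HOXA10*, which acts in the uterus, had the most, with 64 reads over the scrambled and 35 over the knockdown libraries. *HOXA10* ranged from 0.115 to 0.565 in the controls and from 0.135 to 0.232 after knockdown, and 23.9% of its exons are shared with the antisense *HOXA10-AS*. *HOXA11* had 10 and 11 reads. The knockdown libraries were all higher than the controls for *HOXB4*, with 0 reads against 4, 5 and 3 reads, and for *HOXA13*, with 6 reads over the group against 12. For each the two-sided exact permutation test gave p = 0.1, the smallest that 3 libraries against 3 allow. The test was run only on genes whose groups lay apart, where it always gives this value, so it adds nothing to the separation. Of all genes under the filter, 15.1% lay apart in this direction. The groups overlapped for the other 14, and in *HOXA10* the controls themselves differed widely, with 38, 6 and 20 reads.

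Of the 26 noncoding genes listed for the HOX loci, 13 were in the table and 5 were tested, all of cluster C. limma called 0 of these 5, as did edgeR, too few to set against the 44.5% of all genes tested that were called. Without a scaling factor 1 was higher, and 1 was lower with quantile normalization or without scrambled replicate 1 or 3. *HOTAIR*, the long noncoding RNA antisense to the HOXC genes, had 14.995, 16.02 and 11.7 with scrambled siRNA and 11.8, 11.8 and 10.5 after knockdown, or -0.29 on the log2 scale (limma adjusted p = 0.107). *HOXC-AS3*, which overlaps *HOXC10*, had means of 2.99 ± 0.606 and 3.57 ± 0.231 (SD, n = 3 each), or 0.21 on the log2 scale (limma adjusted p = 0.230). In cluster D, *HAGLR* and *HAGLROS* were under the filter and were picked after their values were seen. Each knockdown library lay above all controls, which held for 15.1% of all genes under the filter in this direction. The values were 0.425, 0.489 and 0.448 against 0.387, 0.326 and 0.362 for *HAGLR*, and 0.243, 0.428 and 0.355 against 0.238, 0.153 and 0.181 for *HAGLROS*. The kit marks strand and the study states default counting settings, so reads of a gene and its antisense partner may not be separable.

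Just outside the clusters, 5 of 10 flanking genes were tested, with 1 lower and 1 higher. These are too few to set against the 24.7% and 19.7% of all genes tested. *CBX5*, which encodes the heterochromatin protein HP1 alpha and lies beyond *HOXC4*, was lower after knockdown. Its mean was 474 ± 6.87 with scrambled and 299 ± 3.89 with *DUSP6* siRNA (SD, n = 3 each), or -0.67 on the log2 scale (limma adjusted p = 2.72e-04). *CALCOCO1*, beyond *HOXC13*, rose from 28.1 ± 8.23 to 50.3 ± 4.50 (SD, n = 3 each), or 0.85 on the log2 scale (limma adjusted p = 0.00488). The remaining tested flanking genes *SMUG1*, *LNPK* and *MTX2* were not called, although *SMUG1* (log2 fold change 0.42, limma adjusted p = 0.0607) was called higher in 5 of 16 alternatives, among them the replicate block and DESeq2. *SKAP1*, *SKAP2*, *EVX1*, *EVX2* and *TTLL6* had at most 5 reads over the scrambled libraries.

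Among 10 TALE partners, 8 were tested, of which 1 was lower and 2 were higher (0 and 4 without a scaling factor), too few to set against the 24.7% and 19.7% of all genes tested. *MEIS2*, a cofactor that binds DNA beside HOX proteins, changed by -0.34 on the log2 scale (limma adjusted p = 0.0247), a call lost without a scaling factor (log2 fold change -0.11) and without scrambled replicate 1 or knockdown replicate 1 or 3. *PKNOX2* rose from 1.41 ± 0.315 to 4.52 ± 0.608 (SD, n = 3 each), or 1.20 on the log2 scale (limma adjusted p = 2.07e-04), and *TGIF2*, a repressor of the class, had 0.36 (limma adjusted p = 0.0418), a call that was lost without scrambled replicate 1, without any 1 of the knockdown libraries and with no filter.

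**Figure D4:**
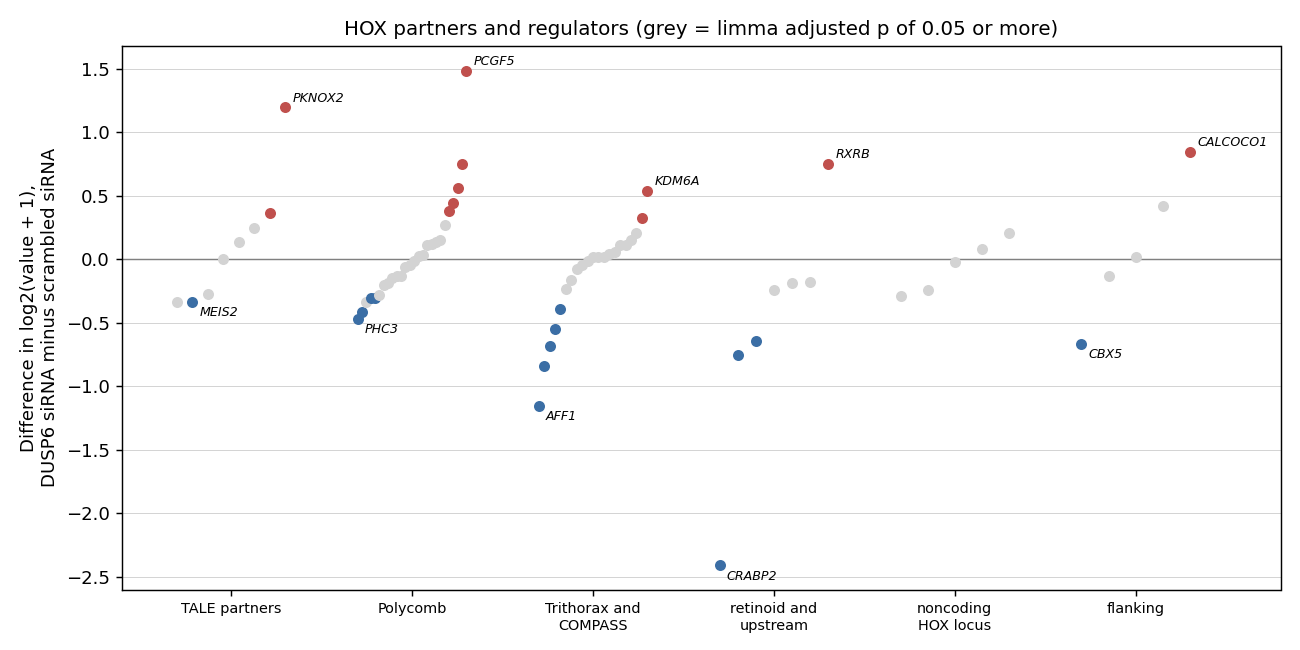
Difference in log2(value + 1) between *DUSP6* and scrambled siRNA for each tested gene of 6 lists, blue and red where the limma adjusted p is under 0.05 and grey otherwise, with the largest called change in each direction named. *CRABP2* is the lowest point and *PCGF5* the highest.

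Of the 27 Polycomb genes, which maintain silent HOX clusters, 26 were tested, and 5 were higher and 4 lower, near or under the 19.7% and 24.7% of all genes tested. The largest increase was in *PCGF5*, a subunit of Polycomb repressive complex 1, from 2.82 ± 0.327 to 9.70 ± 1.04 (SD, n = 3 each), or 1.49 on the log2 scale (limma adjusted p = 3.82e-05). *EZH1*, a histone H3 methyltransferase, rose by 0.75 on the log2 scale (limma adjusted p = 6.24e-04) and *MTF2* by 0.57 (limma adjusted p = 0.00645), while the related methyltransferase *EZH2* had -0.41 (limma adjusted p = 0.0119), *PHC3* -0.47 (limma adjusted p = 0.0151) and *PHC2* -0.30 (limma adjusted p = 0.0212). The lower calls were the less firm. Without a scaling factor 10 genes of the list were higher and 0 lower, and 1 was lower when any 1 of the knockdown libraries was left out or with quantile normalization.

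All 21 genes of the Trithorax and COMPASS list were tested, with 5 lower and 2 higher (3 and 5 without a scaling factor). The lower calls were near the 24.7% and the higher ones under the 19.7% of all genes tested. The list also holds *DOT1L*, *MLLT1*, *MLLT3*, *AFF1* and *AFF4*, which are not subunits of these complexes. Of these, *AFF1* and *MLLT1* were called lower and *DOT1L* higher. Leaving out 1 library gave 3 lower genes without knockdown replicate 3 and up to 7 without scrambled replicate 3. *AFF1* of the elongation machinery was lowest, from 131 ± 12.1 to 58.6 ± 5.64 (SD, n = 3 each), or -1.15 on the log2 scale (limma adjusted p = 7.48e-05). It was followed by *PSIP1*, a tether of the KMT2A complex, with -0.84 (limma adjusted p = 0.00512), and by the methyltransferase *KMT2C* with -0.69 (limma adjusted p = 0.00262). *KDM6A*, a demethylase that removes the Polycomb mark, rose by 0.54 (limma adjusted p = 0.00461), and *DOT1L* by 0.32 (limma adjusted p = 0.0241), but with 1 library left out *DOT1L* was called only without scrambled replicate 3. *KMT2A* itself, the methyltransferase best known for maintaining HOX expression, had means of 185 and 191 (log2 fold change 0.05, limma adjusted p = 0.710).

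The retinoid and upstream list had 7 of 14 genes tested, with 3 lower and 1 higher, beside 24.7% and 19.7% of all genes tested. With no filter 3 were lower and 2 higher. *CRABP2*, which carries retinoic acid to its receptors, had 722, 1089 and 693 with scrambled siRNA and 175, 124 and 165 after knockdown, or -2.41 on the log2 scale (limma adjusted p = 3.03e-05). The receptor genes *RARA* (log2 fold change -0.75, limma adjusted p = 0.00303) and *RARG* (-0.64, limma adjusted p = 0.00227) were lower as well. *RXRB*, a shared receptor partner, rose by 0.75 on the log2 scale (limma adjusted p = 5.87e-04). *CTCF*, which organizes the boundaries within HOX clusters, had -0.24 (limma adjusted p = 0.0731).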

How the data were processed

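RNA of 6 MDA-MB-453 libraries (3 scrambled, 3 *DUSP6* knockdown siRNA) was sequenced by the authors from a TruSeq stranded mRNA kit, aligned to hg38 and assigned to RefSeq genes with Rsubread 2.0.0. The submitters' processing notes also name bcl2fastq and edgeR. The authors deposited 1 normalized signal per gene and library. Dividing each column by its smallest step returned whole reads for 100% of values (within 0.001 reads), and the implied scaling equals edgeR's TMM factors on the recovered reads, so composition was already adjusted for.

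limma 3.58.1 in R 4.3.3 (trend) was run on log2(value + 1) for genes with a mean of at least 1, with Benjamini-Hochberg adjustment and calls under 0.05. edgeR 4.0.16 and DESeq2 1.42.0 on recovered reads, other filters, scalings and pseudocounts, a replicate block and leaving out each library were alternatives. The scripts were tested on simulated data. All HOX genes with a mean of at least 1 were named, the others by cluster, and in the other lists up to 3 called genes per direction. *HOTAIR*, *HOXC-AS3*, *HAGLR*, *HAGLROS*, *KMT2A*, *CTCF* and the uncalled flanking genes were added after their values were seen. The members and lists were chosen with earlier results of these data known, and some listed genes and 1 sequence are not reported here. Positions came from RefSeq on GRCh38, which matched 27 of 27 HOX genes, and exon lengths and overlaps from GENCODE 44 on the same build. The study states independent experiments in general terms and different siRNAs for these groups, but the labels do not tie the libraries of a group to separate cultures, so p-values measure only the spread between these libraries.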

Additional observations from a re-analysis of the deposited data

How the results depend on the processing

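The calls of *HOXC8*, *HOXC10* and *HOXD8* held under every alternative that tested them. For *HOXD8* only the fit with no filter is free of the filter that it passed through its knockdown libraries, and the other alternatives share that selection. With no filter 2 HOX genes were higher, since *HOXB4* was then tested and called, on only 0 reads over the scrambled and 12 over the knockdown libraries. With a mean of at least 10, *HOXD8* was not tested, so 0 HOX genes were higher, and 1639 of all genes were higher instead of 2540, with fewer genes tested. Leaving out 1 library at a time gave 2 to 5 lower HOX genes, the 5 being without scrambled replicate 3, and 1574 to 3183 higher genes in the table, the 1574 being without knockdown replicate 2. Over the same 6 fits *HOXC5* ranged from -0.12 to 0.0041 and *HOXC13* from -0.14 to 0.071 on the log2 scale, each positive without scrambled replicate 1. CPM without a scaling factor, chosen after seeing the data, gave 4777 higher and 1800 lower genes, and turned 5 uncalled HOX genes positive: *HOXC4* (0.018), *HOXB3* (0.012), *HOXC11* (0.070), *HOXC5* (0.11) and *HOXC13* (0.18). *HOXC13* was also positive with quantile normalization (0.016). The causes of these sign changes were not tested. Replicate numbers did not pair the libraries (correlations of deviations 0.0050, 0.0868 and -0.0764), and with a replicate block 3 HOX genes were lower and 1 higher, with 2495 higher and 3096 lower genes in the table. Genes with a few reads per group are limited by depth.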
